A study of Mus musculus with 2 samples.

Results

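Tumour necrosis factor (Tnf), its receptors Tnfrsf1a and Tnfrsf1b and the TNF-inducible genes Tnfaip2, Tnfaip3 and Nfkbia were examined across the cell types of the inflamed temporomandibular joint (TMJ). They were selected by symbol and are 6 of the 32285 genes counted. Single-cell RNA sequencing (scRNA-seq) captures cells in droplets and counts molecules by unique molecular identifiers (UMIs). There were 2 libraries, both from C57BL/6 mice aged 8 to 10 weeks per the labels, and the study describes the animals as female. 1 library was WT and 1 was from Prox1 mutant animals, described by the study as Prox1+/- heterozygotes and used there as animals with impaired lymphatic vessels. Complete Freund's adjuvant (CFA), an inflammatory agent, had been injected into the joint in both, so no library of an uninjected joint is compared here. Neither the number of animals behind a library nor the time between injection and harvest is given in the sources used here. With 1 library per condition, genotype and library cannot be told apart, no p-value was computed, and every interval covers counting error only.

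TNF is made as a membrane protein, mainly by myeloid cells and T cells, and is released by the protease ADAM17. Tnfrsf1a encodes TNFR1, the receptor that starts the NF-kappaB and cell death pathways in most cells, and Tnfrsf1b encodes TNFR2, which is found mainly on leukocytes and endothelium. NF-kappaB then switches on its own brakes: Nfkbia encodes IkappaB-alpha, which holds NF-kappaB in the cytoplasm, and Tnfaip3 encodes A20, a ubiquitin-editing enzyme that shuts down receptor signaling. Tnfaip2 (M-Sec) is a TNF-inducible gene whose product promotes thin membrane tubes between cells. In arthritic joints TNF is a major driver of synovial inflammation.

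In GRCm38, Tnf (ENSMUSG00000024401) lies on the minus strand of chromosome 17 from 35199381 to 35202007. Tnfrsf1a (ENSMUSG00000030341) lies on the plus strand of chromosome 6 from 125349362 to 125362484, and Tnfrsf1b (ENSMUSG00000028599) on the minus strand of chromosome 4 from 145213463 to 145246870. Chromosome 12 carries Tnfaip2 (ENSMUSG00000021281) on the plus strand from 111442469 to 111455018 and Nfkbia (ENSMUSG00000021025) on the minus strand from 55489410 to 55492647. Tnfaip3 (ENSMUSG00000019850) lies on the minus strand of chromosome 10 from 19000910 to 19015657. The 250 bases before the RefSeq starts of Tnf and Nfkbia (GRCm38.p6) are shown because NF-kappaB acts on both genes and because they stand for the ligand and a feedback gene. Capitals mark matches to the NF-kappaB motif, searched on both strands as GGGA or GGGG, then any 4 bases, then CC:
Tnf, chr17:35202008-35202257, minus strand: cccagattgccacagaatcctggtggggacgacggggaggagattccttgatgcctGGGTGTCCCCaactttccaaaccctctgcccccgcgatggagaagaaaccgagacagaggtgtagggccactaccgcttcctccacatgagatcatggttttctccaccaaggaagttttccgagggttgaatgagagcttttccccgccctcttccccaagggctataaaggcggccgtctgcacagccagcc
Nfkbia, chr12:55492648-55492897, minus strand: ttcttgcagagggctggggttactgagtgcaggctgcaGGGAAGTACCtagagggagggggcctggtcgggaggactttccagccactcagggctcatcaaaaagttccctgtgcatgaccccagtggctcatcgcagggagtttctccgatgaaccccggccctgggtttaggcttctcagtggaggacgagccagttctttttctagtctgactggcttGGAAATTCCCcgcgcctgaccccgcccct

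The Tnf window held 1 match and the Nfkbia window held 2, of which the nearer one (GGGAATTTCC read on the other strand) ended 20 bases before the start. The window of the first of the 2 RefSeq starts of Tnfaip3 held 4 overlapping or separate matches, among them GGGGATTTCC ending 3 bases before the start, and the Tnfaip2 window held 1, GGGGCCCTCC. The windows of Tnfrsf1a and Tnfrsf1b held 0 matches. RefSeq starts can differ from the ends of the gene spans given above. The Tnfrsf1a window (chr6:125349473-125349722) thus lies inside the span of its gene. Those of Tnfaip2 (chr12:111442411-111442660) and of the first Tnfaip3 start (chr10:19015411-19015660) lie largely inside theirs. Of 32851 RefSeq windows of this length, 28.4% held at least 1 match and 9.60% held 2 or more. A match is a run of letters and not a measured binding site.

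The kept cells were 4352 WT cells with 48366846 UMIs and 5757 mutant cells with 54330221 UMIs, at medians of 6997 and 4848 UMIs per cell. Clustering gave 42 clusters, of which 33 were named from marker genes as 18 cell types, and each name stands for cells that are like that type by these markers. The cluster named granulocyte-monocyte progenitors was led by Prtn3, Elane and Mpo beside the monocyte genes Ccr2 and F13a1, so monocytes may be among these cells. Of the 3 clusters named inflammatory macrophages, 1 was led by Mmp12, 1 had Nos2 and Cd86 among its 10 leading genes, and 1 (29 cells of WT, 295 of the mutant) began with the immunoglobulin genes Igkc and Igha beside Nos2 and Arg1, and a cluster led by C1qa, C1qc and Mrc1 was named macrophages. Levels are given in UMIs per 1000000 UMIs of the same cells (CPM) with exact 95% Poisson intervals, and 11 types with at least 50 cells in each library were compared between the libraries. Prox1, the mutated gene, had 563 UMIs (11.6 CPM) for WT and 315 (5.80 CPM) for the mutant. Endothelial cells, which were 21.8% of the WT cells and 8.74% of the mutant cells, had 43.1 and 26.4 CPM of Prox1. The libraries shared 10 barcodes, 4 of them among the kept cells of both.

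Tnf was a gene of neutrophils, macrophages, progenitors and T cells in both libraries. Neutrophils had the highest level, with 446 CPM (398 to 499) for WT and 427 CPM (387 to 470) for the mutant. Macrophages stood at 155 CPM (143 to 168) for WT and 166 CPM (155 to 176) for the mutant. Inflammatory macrophages stood at 106 CPM (99.5 to 113) and 164 CPM (155 to 173). In WT, progenitors came second with 192 CPM (175 to 210), and the intervals of immature neutrophils (109 CPM), inflammatory macrophages and T cells (102 CPM) overlapped. In the mutant, macrophages and inflammatory macrophages overlapped, as did T cells (100 CPM), immature neutrophils (97.9 CPM) and progenitors (95.5 CPM). Structural and endothelial cells lay at the bottom, apart from the 101 mutant chondrocytes, which had 60.6 CPM (42 to 84.7) where the 29 WT chondrocytes had 4.30 CPM (1.17 to 11). The WT chondrocytes, too few for a comparison between the libraries, had a median depth of 32750 UMIs and the mutant ones 3342. The part of depth or of RNA from other cells in these values was not tested. Endothelial cells had 1.90 CPM for WT and 1.75 CPM for the mutant, with intervals overlapping those of erythroid cells (3.30 and 3.60 CPM), which are not known to make Tnf.

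Most Tnf UMIs lay in myeloid cells. Macrophages, inflammatory macrophages, neutrophils of both stages and progenitors together held 94.6% (93.7 to 95.4) of the 2828 Tnf UMIs of WT and 89.0% (87.9 to 89.9) of the 3957 of the mutant. Inflammatory macrophages alone held 34.2% and 33.8%. Progenitors held 16.6% (15.3 to 18.0) for WT and 5.99% (5.27 to 6.77) for the mutant, while cells of unnamed clusters held 1.17% and 5.41%. The signal was concentrated in few cells: 726 WT cells and 1009 mutant cells had any Tnf UMI, and 50% of the UMIs lay in 111 WT cells and 114 mutant cells. The largest count in a cell was 59 UMIs for WT and 83 for the mutant.

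**Figure D1:**
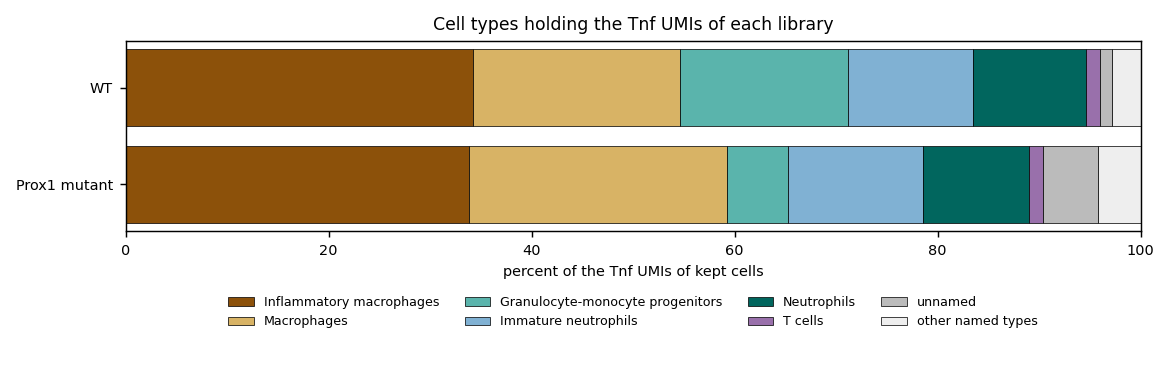
Share of the Tnf UMIs of each library (x axis, percent of 2828 UMIs for WT and 3957 for the mutant) by marker-defined cell type, 1 bar per library. Both kinds of macrophages together fill over 50% of each bar, and the progenitor segment is 16.6% for WT and 5.99% for the mutant.

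After each cell was thinned to 2000 UMIs, 34.6% of WT neutrophils and 36.4% of mutant neutrophils had a Tnf UMI. The shares were 23.9% and 23.4% of macrophages and 16.0% and 20.7% of inflammatory macrophages. Thinning leaves out shallower cells, 46 and 37 neutrophils, 8 and 28 macrophages and 32 and 242 inflammatory macrophages, WT and mutant. In erythroid cells the thinned shares were 0.336% and 0.646%, which serves as the background. Before thinning, 45.6% and 46.7% of neutrophils had a Tnf UMI at median depths of 2894 and 4706 UMIs, against 1.62% and 2.14% of erythroid cells at 9160 and 9388. A large part of the neutrophils and macrophages thus had no Tnf UMI at this depth, which does not show that they lacked the transcript.

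Between the libraries, the Tnf level went in opposite directions in different myeloid cells. A gene was called between the libraries in a cell type when it was past 1.5-fold and had at least 50 UMIs over both libraries, and Tnf could be compared so in 5 of the 11 types. In inflammatory macrophages it was higher in the mutant, with a log2 ratio of 0.63 (0.51 to 0.75). The thinned shares of these cells with a Tnf UMI, 16.0% (12.1 to 20.6) for WT and 20.7% (16.7 to 25.3) for the mutant, had overlapping intervals. In the same cells the 8 neutrophil markers summed to 928 and 2906 CPM, WT and mutant, and their part in the Tnf value was not tested. In progenitors Tnf was lower, at -1.01 (-1.24 to -0.78), from 470 UMIs in 138 WT cells and 237 UMIs in 163 mutant cells. The largest count in a progenitor was 59 UMIs for WT and 18 for the mutant. After the thinning above, 25.6% (18.4 to 33.8) of WT and 16.0% (10.6 to 22.7) of mutant progenitors had a Tnf UMI, with overlapping intervals. Thinned to 1000 UMIs the shares were 10.9% and 11.7%, and to 4000 UMIs 38.5% and 24.2%. Over 10 other settings the progenitor ratio ranged from -2.17 to -0.95. Macrophages (0.09, -0.06 to 0.24), neutrophils (-0.06, -0.28 to 0.15) and immature neutrophils (-0.15, -0.35 to 0.05) had intervals that include 0. The main cluster of inflammatory macrophages, led by Mmp12, had 109 CPM in 265 WT cells and 184 CPM in 205 mutant cells, and the cluster led by immunoglobulin genes had 29.4 and 93.7 CPM from 6 and 104 UMIs. The median of all genes tested in inflammatory macrophages was itself 0.27, and relative to it the Tnf ratio was 0.36, under 1.5-fold. Over 9 other settings the ratio ranged from 0.36 to 0.74, and it was also under 1.5-fold with a stricter cell filter and with doublets removed.

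The immature neutrophils held 2 clusters that differed in direction. Tnf stood at 119 CPM for WT and 74.9 CPM for the mutant in the cluster led by Camp and Ngp (-0.67, -0.96 to -0.38). In the cluster led by Ccl8 and Retnlg it stood at 95.9 and 117 CPM (0.29, 0.00 to 0.58), and this cluster had 50 WT and 315 mutant cells. The study lists Ccl8 among macrophage genes. Over all immature neutrophils the 8 macrophage markers summed to 1527 and 1742 CPM, WT and mutant. They summed to 565 and 445 CPM in neutrophils and to 2095 and 1934 CPM in inflammatory macrophages. Their part in the Tnf values of immature neutrophils was not tested. Under 4 other settings monocytes separated from progenitors, and Tnf was lower in the mutant in both. Monocytes then had 189 to 196 CPM in WT and 127 to 140 CPM in the mutant. Progenitors had 152 to 204 CPM and 33.8 to 68.0 CPM. In B cells and smooth muscle cells Tnf had 33 and 26 UMIs over both libraries, too few for a call: 6 and 27 UMIs in B cells and 4 and 22 in smooth muscle cells, WT and mutant.

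**Figure D2:**
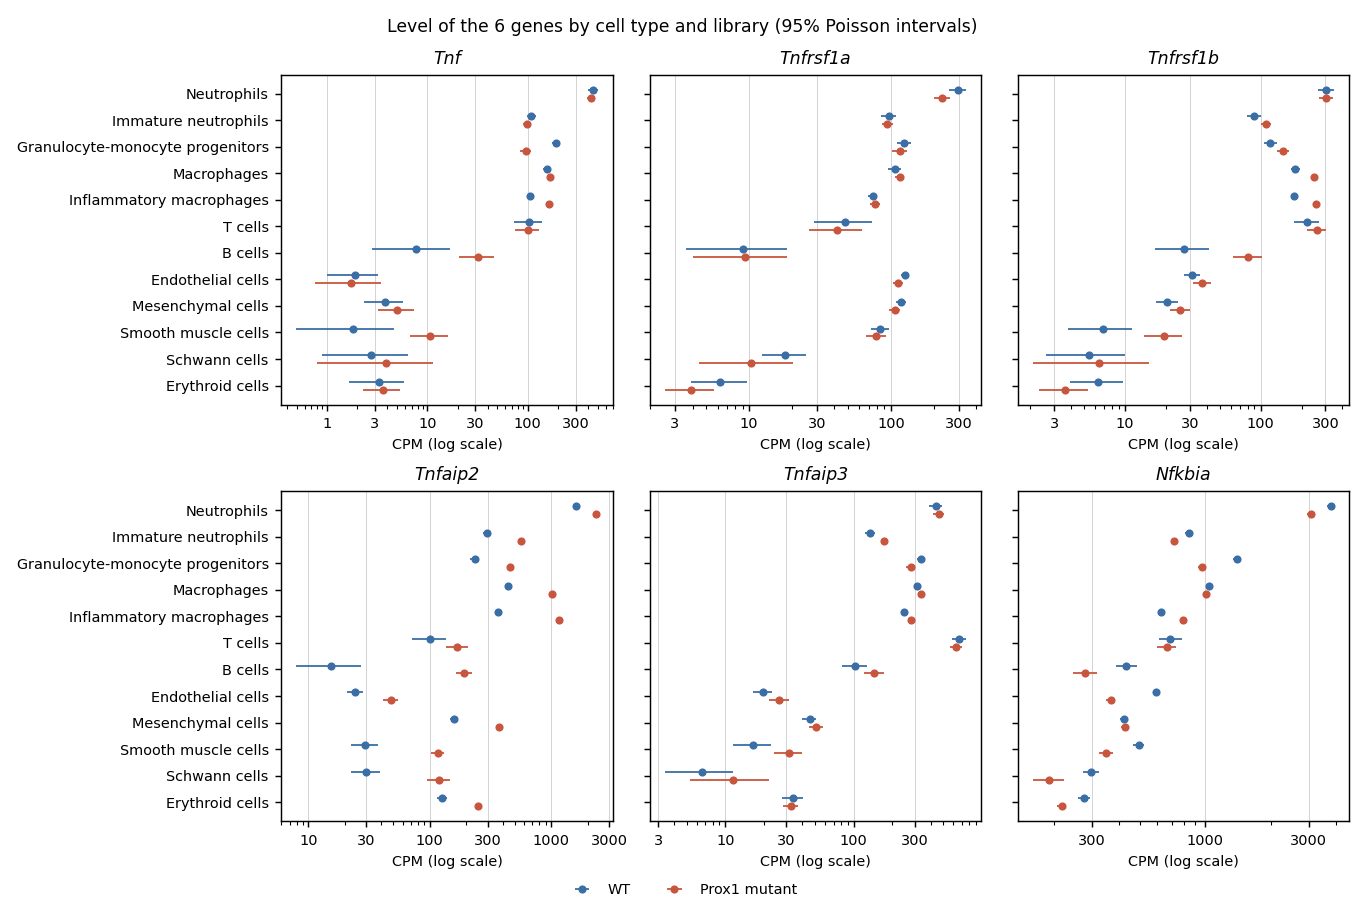
Level of each gene in CPM (x axes, log scale) in 12 marker-defined cell types, with WT in blue and the Prox1 mutant in red, points for the level of 1 library and lines for exact 95% Poisson intervals. Neutrophils are at or near the top for every gene, and for Tnfaip2 each red point lies to the right of the blue one.

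The receptors divided the joint into compartments. Tnfrsf1a was spread over leukocytes and structural cells, while Tnfrsf1b was mainly in leukocytes. For Tnfrsf1a, neutrophils were highest with 295 CPM (256 to 338) for WT and 230 CPM (200 to 262) for the mutant. Below them in WT, endothelial cells (125 CPM), progenitors (124 CPM), mesenchymal cells (117 CPM) and macrophages (106 CPM) overlapped from each to the next. In the mutant these types had 112, 115, 106 and 115 CPM, and smooth muscle cells had 83.5 and 78.7 CPM. B cells (9.01 and 9.38 CPM) and Schwann cells (18.0 and 10.3 CPM) were low, and erythroid cells had 6.29 and 3.90 CPM.

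Tnfrsf1b was highest in neutrophils, with 305 CPM (266 to 349) for WT and 304 CPM (271 to 341) for the mutant. T cells followed with 219 CPM (176 to 270) and 259 CPM (218 to 305), overlapping neutrophils in both libraries. Macrophages had 179 CPM (166 to 194) and 247 CPM (234 to 260). Endothelial cells had 31.4 and 36.9 CPM and mesenchymal cells 20.5 and 25.5 CPM, above the 6.29 and 3.60 CPM of erythroid cells. With thinning to 2000 UMIs, 5.72% of WT and 7.36% of mutant endothelial cells had a Tnfrsf1b UMI, against 0.671% and 0.969% of erythroid cells. Before thinning these shares were 16.3% and 24.7% at median depths of 4722 and 6110 UMIs, against 3.90% and 3.06%.

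Counting both receptors in the same cells, the share of receptor UMIs that were Tnfrsf1b separated the cell types without regard to depth. It was 82.2% (73.7 to 89.0) in WT T cells, 70.3% (68.3 to 72.1) in WT inflammatory macrophages and 62.9% (59.9 to 65.8) in WT macrophages. It lay near equal numbers in neutrophils (50.8%, 45.9 to 55.7) and immature neutrophils (48.2%, 44.2 to 52.3). The value of immature neutrophils mixes 2 unlike clusters. In WT the cluster led by Camp and Ngp (131 cells) had 162 Tnfrsf1a and 74 Tnfrsf1b UMIs. The cluster led by Ccl8 and Retnlg (50 WT cells) had 146 and 213. In the mutant these clusters had 162 and 315 cells, so the libraries differ in this mixture. Structural cells held mostly Tnfrsf1a: the Tnfrsf1b share was 20% (17.7 to 22.6) in endothelial, 14.9% (12.4 to 17.6) in mesenchymal and 7.58% (4.30 to 12.2) in smooth muscle cells. This share depends on how well each transcript is captured, so it orders cell types and does not give the proportion of receptor molecules.

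**Figure D3:**
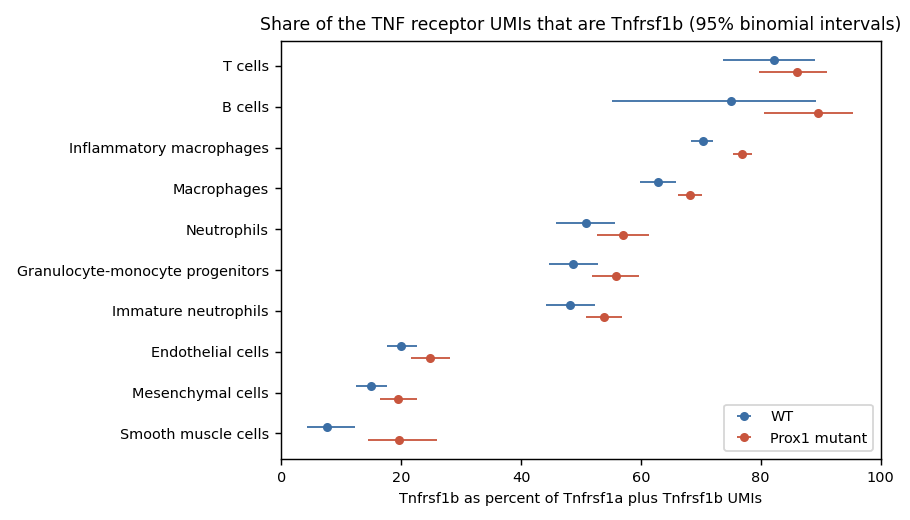
Tnfrsf1b as percent of all Tnfrsf1a and Tnfrsf1b UMIs (x axis) in 10 cell types, WT in blue and Prox1 mutant in red, with exact 95% binomial intervals. Lymphocytes and macrophages lie above 60%, endothelial, mesenchymal and smooth muscle cells below 30%, and each mutant point lies to the right of its WT point. In most types the intervals of the libraries overlap.

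The receptor share was higher in the mutant in 13 of the 14 types with at least 20 receptor UMIs in both libraries, all but erythroid cells. In most of these types the intervals of the libraries overlapped, as in neutrophils (45.9 to 55.7 and 52.6 to 61.3). Chondrocytes and osteoblast-lineage cells had 1 WT Tnfrsf1b UMI each and adipocytes 3. The endothelial clusters were not alike. The Tnfrsf1b ratio was 1.05 (0.49 to 1.63) in the cluster led by Timp4 and 0.27 (-0.23 to 0.78) in the one led by Nebl. In the endothelial cluster led by Ubd and Selp it was -0.55 (-1.12 to -0.01). Tnfrsf1a stood at 0.01, 0.08 and -0.32 in these clusters. Whether other pairs of genes shift alike was not tested. In inflammatory macrophages the Tnfrsf1b share was 76.9% (75.3 to 78.5) in the mutant and in macrophages 68.2% (66.2 to 70.2), intervals that do not overlap those of WT. In smooth muscle cells it was 19.7% (14.5 to 25.9), also apart from WT. Tnfrsf1b was higher in the mutant in 8 of the 9 types tested (median log2 ratio 0.32), and Tnfrsf1a was lower in 6 of 8 (median -0.10). The 2 types with Tnfrsf1a above 0 were macrophages (0.12) and inflammatory macrophages (0.05), so there Tnfrsf1a did not add to the higher share. These shifts were mostly under 1.5-fold, and the share of all genes that keep 1 direction in as many types is not given here. Tnfrsf1a passed that fold in 0 of 8 types, with ratios from -0.36 in neutrophils to 0.12 in macrophages. Tnfrsf1b passed it in B cells, at 1.58 (0.86 to 2.36) from 21 and 69 UMIs, WT and mutant. It also passed in smooth muscle cells, at 1.5 (0.61 to 2.46) from 15 and 40 UMIs. The least count for a test sums both libraries, and in both types most of these UMIs came from the mutant. Such a sum can favour types where 1 library is high. Erythroid cells (-0.81, -1.71 to 0.11, from 21 and 24 UMIs) had too few for a test. So had Schwann cells (0.24, -1.66 to 1.93, from 10 and 5 UMIs). In inflammatory macrophages Tnfrsf1b stood at 175 CPM for WT and 257 CPM for the mutant (0.55, 0.45 to 0.64).

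The smooth muscle values rest on different cells in the libraries. Of the mutant smooth muscle cells, 165 and 33 came from 2 clusters that held 0 WT cells, and with resolution 0.5 the Tnfrsf1b ratio there was -1.52. In B cells the 8 neutrophil markers summed to 275 CPM in WT, with Mmp8, Cxcr2 and Asprv1 at 0, and to 2217 CPM in the mutant, with 0 of the 8 at 0. Their part in the B cell values of Tnfrsf1b, Tnf and Tnfaip2 was not tested.

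Tnfaip3 and Nfkbia, the inhibitors, were found in most cell types, with the highest levels in leukocytes. Tnfaip3 was highest among the larger types in T cells, with 668 CPM (590 to 753) for WT and 630 CPM (566 to 700) for the mutant. Neutrophils had 436 CPM (389 to 488) and 461 CPM (419 to 506), and macrophages 312 CPM (294 to 330) and 333 CPM (319 to 348). In endothelial cells, which held Tnfrsf1a at a level like that of macrophages, Tnfaip3 stood at 19.7 and 26.4 CPM. Erythroid cells had 33.6 CPM (27.6 to 40.4) and 32.3 CPM (28.1 to 36.9) of Tnfaip3. They lay above endothelial cells in WT (16.5 to 23.3) and overlapped them in the mutant (21.9 to 31.6). Erythroid cells thus give no background for endothelial Tnfaip3. The 12 WT and 17 mutant mast cells and basophils had more than T cells, with 1047 CPM (887 to 1227) and 2219 CPM (1916 to 2556).

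Nfkbia was the most widely detected of the 6 genes, in 77.7% of the kept WT cells and 66.5% of the kept mutant cells. Neutrophils had 3791 CPM (3648 to 3938) for WT and 3057 CPM (2948 to 3170) for the mutant. The small mast cell and basophil cluster had 4111 CPM (3788 to 4455), which overlaps the WT neutrophils, and 4970 CPM (4511 to 5463) in mutant cells. Progenitors (1395 and 962 CPM) and macrophages (1042 and 1006 CPM) came next. Under the settings that separated monocytes from progenitors, monocytes had 2071 to 2311 CPM of Nfkbia in WT and 1342 to 1543 CPM in the mutant. Progenitors then had 910 to 1197 CPM and 492 to 914 CPM. Endothelial cells stood at 591 CPM (573 to 610) for WT and 366 CPM (349 to 384) for the mutant. Erythroid cells had 276 and 217 CPM, so no type examined was free of Nfkbia UMIs and no background level can be set.

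Tnfaip3 differed little between the libraries. It was tested in 10 types, was above 0 in 8 of them with a median log2 ratio of 0.17, and passed 1.5-fold in 1, smooth muscle cells (0.93, 0.33 to 1.56), from 36 and 65 UMIs. The smooth muscle levels, 16.4 and 31.4 CPM, were not above those of erythroid cells. The Tnfaip3 ratio was 0.10 (-0.01 to 0.20) in macrophages and 0.08 (-0.13 to 0.29) in neutrophils. Nfkbia went mostly the other way, below 0 in 9 of 11 types with a median of -0.35. It passed 1.5-fold in 3 types, all lower in the mutant: endothelial cells (-0.69, -0.78 to -0.61), Schwann cells (-0.65, -0.92 to -0.38) and B cells (-0.64, -0.88 to -0.39). Of the 2610 genes that could be tested in all 11 types, 214 (8.20%) were lower in at least 3 types, so this breadth is not particular to Nfkbia. The share of all genes on 1 side of 0 in as many types as Tnfaip3 or Nfkbia is not given here. In left-out barcodes with under 500 genes the ratio was 0.60 (0.08 to 1.14) for Tnfaip3 and -0.31 (-0.56 to -0.05) for Nfkbia. In inflammatory macrophages Nfkbia was higher in the mutant, with 621 CPM for WT and 784 CPM for the mutant (0.34, 0.28 to 0.39), a ratio of 0.07 relative to the median of all genes there. Of 12 genes that respond to tissue dissociation, 2 were lower past 1.5-fold in endothelial cells and the median was -0.28, while in macrophages of both kinds 0 of 12 passed and the median was 0.12. In Schwann cells 3 of 12 were lower (median -0.13). B cells went the other way, with 7 of 10 tested higher and 0 lower (median 0.75). Erythroid cells, with an Nfkbia ratio of -0.35, had 9 of 12 lower (median -0.89). Their part in the Nfkbia values was not tested.

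**Figure D4:**
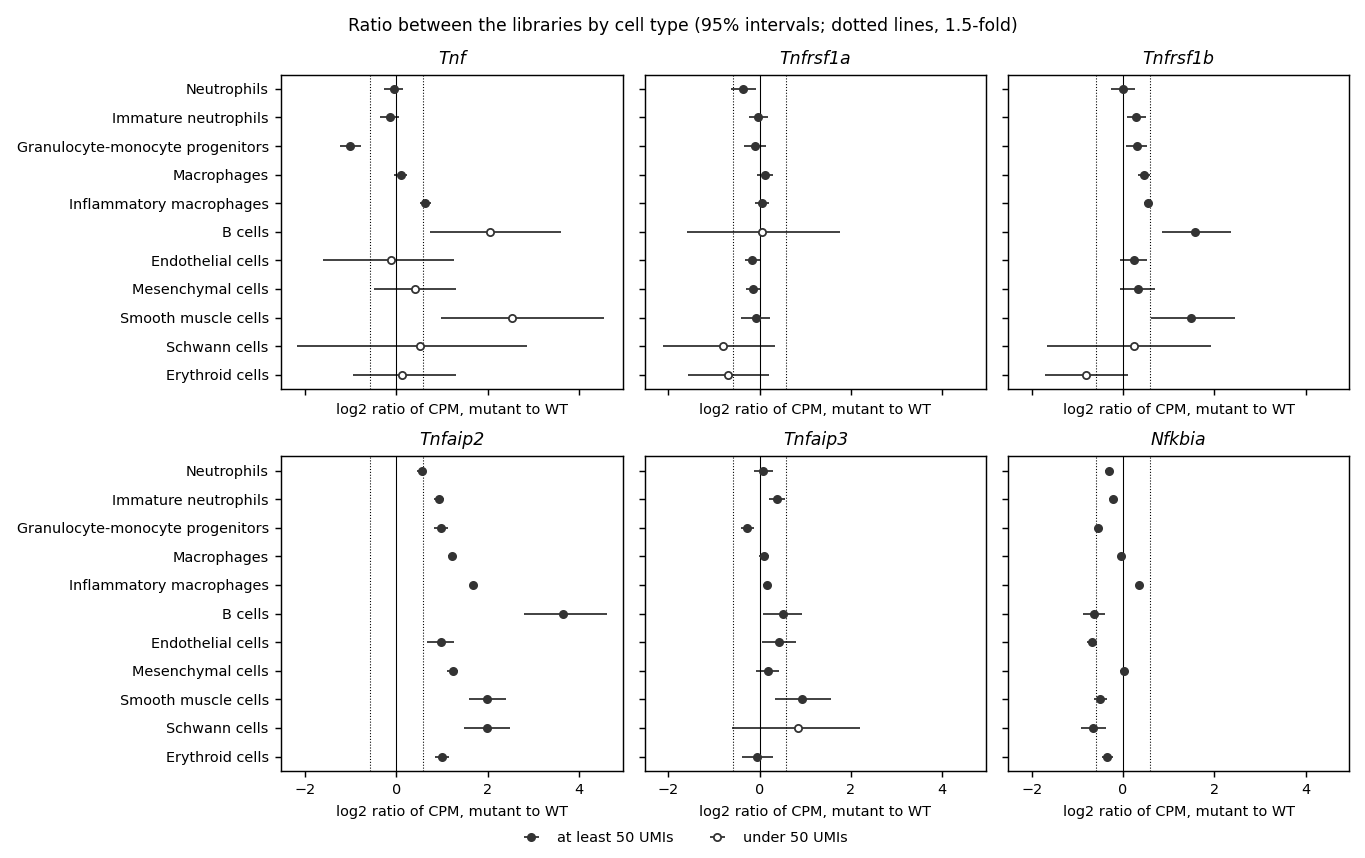
Log2 ratio of CPM, mutant to WT (x axes), of each gene in the 11 cell types compared, with 95% intervals from the counts, filled points for at least 50 UMIs over both libraries, open points for fewer and dotted lines at 1.5-fold. All 11 Tnfaip2 points lie to the right of 0, from 0.55 in neutrophils to 3.64 in B cells, while the other genes have points on both sides. Nfkbia lies below 0 in 9 of 11 types. Among filled points, Tnfrsf1b lies above 0 in 8 of 9 types and Tnfaip3 in 8 of 10.

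Tnfaip2 showed the widest difference between the libraries of the 6 genes. Over all kept cells it had 9785 UMIs (202 CPM) for WT and 28569 UMIs (526 CPM) for the mutant, and a UMI was found in 38.4% and 53.3% of the cells. Its level was higher in the mutant in all 11 types compared, with a median log2 ratio of 1.22, and past 1.5-fold in 10 of them. Neutrophils, which held the highest level, were the exception, with 1593 CPM (1501 to 1689) for WT and 2327 CPM (2231 to 2425) for the mutant and a ratio of 0.55 (0.44 to 0.65). In WT endothelial, Schwann, smooth muscle and B cells the Tnfaip2 interval overlapped that of the left-out barcodes with under 500 genes, given below. Macrophages went from 438 CPM (417 to 460) in WT to 1016 CPM (991 to 1042) in the mutant, a ratio of 1.22 (1.14 to 1.29). Inflammatory macrophages stood at 362 CPM (350 to 375) and 1155 CPM (1132 to 1179), a ratio of 1.67 (1.62 to 1.73). All 4 clusters of these macrophages had the same direction, with ratios of 1.22, 1.76, 1.71 and 1.71. The 8 neutrophil markers summed to 562 and 1295 CPM in macrophages and to 928 and 2906 CPM in inflammatory macrophages, and their part was not tested.

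Cells with low levels showed the difference as well. Mesenchymal cells had 158 CPM (147 to 168) of Tnfaip2 for WT and 370 CPM (353 to 387) for the mutant. Endothelial cells had 24.4 CPM (20.8 to 28.4) and 47.6 CPM (41.5 to 54.4), the lowest level of any compared type in the mutant. Erythroid cells had 126 CPM (114 to 138) and 252 CPM (240 to 264), well above endothelial cells in both libraries. T cells, too few for the comparison, had 99.7 and 168 CPM. Within a type the clusters were not alike: the endothelial clusters had ratios of 0.18 (-0.74 to 1.07), 1.25 (0.72 to 1.79) and 0.99 (0.59 to 1.40), and the larger mesenchymal cluster had 1.30 (1.18 to 1.42). The other mesenchymal cluster, with 11 WT cells and 204 of the 443 mutant mesenchymal cells, had -0.12 (-1.37 to 1.52), so mesenchymal values compare different mixtures of clusters. Immature neutrophils also divided, with 0.44 (0.25 to 0.62), under 1.5-fold, in the cluster led by Camp and Ngp and 1.01 (0.88 to 1.15) in the cluster led by Ccl8 and Retnlg. The part of the macrophage markers in these values was not tested. The Tnfaip2 ratio was greatest in B cells (3.64, 2.79 to 4.62), but there 1 cell held 97 of the 164 mutant UMIs and 1 cell held 9 of the 12 WT UMIs.

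At equal depth the share of cells with a Tnfaip2 UMI differed beyond counting error in some types and not in others. With each cell thinned to 2000 UMIs, 45.3% of WT macrophages and 67.9% of mutant macrophages had a Tnfaip2 UMI, against 84.9% and 89.7% before thinning at median depths of 12528 and 14919 UMIs. In inflammatory macrophages the thinned shares were 46.2% and 75.1%. In mesenchymal cells they were 19.2% and 38.0%, and in erythroid cells 21.1% and 40.4%. In neutrophils, which had the highest level, the shares were 81.6% (74.1 to 87.7) and 80.3% (72.5 to 86.7), with intervals that overlap. Progenitors had 38.3% (30.1 to 47.2) and 46.8% (38.8 to 54.9), with overlapping intervals. Endothelial cells had 4.04% (2.84 to 5.54) and 6.76% (4.73 to 9.32), also overlapping, and before thinning 10.9% and 20.5%. The intervals of B cells and Schwann cells overlapped as well.

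Few of the genes tested in all 11 types differed so widely. The least UMI count for a test is summed over both libraries, so a gene can enter through the library where it is high. In B cells Tnfaip2 entered through its mutant UMIs, with 12 for WT and 164 for the mutant. With doublets removed it was tested in 10 of the 11 types. A least count in each library was not tested. Of the 2610 genes tested in all 11 types, 17 (0.651%) were higher in the mutant past 1.5-fold in at least 10 types, Tnfaip2 among them. The other 16 were in none of the pathway lists. They were the ribosomal protein genes Rps28, Rps29 and Rpl38, the mitochondrial genes Atp5k, Ndufa3, Ndufb1-ps and Pet100, the haemoglobin gene Hba-a2, the gland genes Lipf and Bpifb1, and Nmt1, Satb1, Cmss1, Gm10076, AY036118 and AC149090.1. All of these that had UMIs in both libraries were also higher in the mutant among barcodes with under 500 genes. The cell filter left these barcodes out, and they held 229061 Hba-a2 UMIs in WT and 974986 in the mutant. Whether they are cells was not tested, so their levels set no background. In those barcodes Tnfaip2 stood at 26.3 CPM (21.0 to 32.5) in 944 WT barcodes and 46.9 CPM (41.8 to 52.4) in 1690 mutant barcodes, a log2 ratio of 0.83 (0.49 to 1.20). The WT interval overlaps those of WT endothelial (20.8 to 28.4), Schwann (22.6 to 39.1), smooth muscle (22.5 to 37.3) and B cells (7.98 to 27.0). The mutant interval overlaps that of endothelial cells but lies below those of Schwann, smooth muscle and B cells. Endothelial Tnfaip2 levels are thus not told apart from those of the left-out barcodes in either library, nor are those of Schwann, smooth muscle and B cells in WT. The part of RNA from outside the cells in their Tnfaip2 ratios was not tested.

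**Figure D5:**
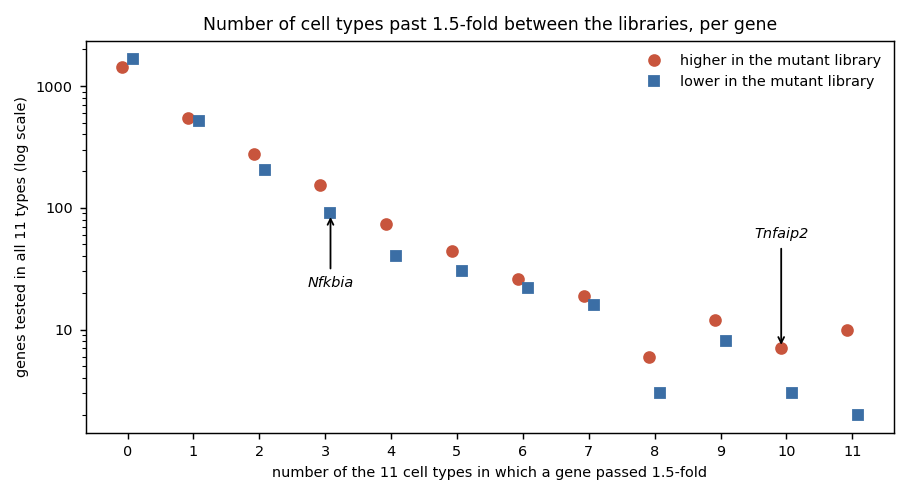
Number of genes (y axis, log scale) by the number of the 11 cell types in which they passed 1.5-fold between the libraries (x axis), higher in the mutant as red circles and lower as blue squares, over the 2610 genes tested in all types. Tnfaip2, higher in 10 types, is among the 17 genes at 10 or more, and Nfkbia, lower in 3 types, is among 214 at 3 or more.

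Genes near Tnfaip2 did not share its difference as a group. Over all kept cells, the 25 other genes tested whose starts lie within 1 Mb of it on chromosome 12 had a median log2 ratio of 0.00, with 2 higher and 3 lower past 1.5-fold, against 1.38 (1.34 to 1.41) for Tnfaip2. The higher ones were 4930595D18Rik (0.89, 0.54 to 1.25) and Traf3 (0.64, 0.59 to 0.69), which encodes an adaptor that restrains alternative NF-kappaB signaling. The lower ones were Kif26a (-0.91, -1.08 to -0.73), Ckb (-0.70, -0.77 to -0.64) and Bag5 (-0.61, -0.73 to -0.50). The share of all genes past the fold over all kept cells is not given here.

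Cells with a Tnf UMI were compared with cells without in the same type, after thinning, in 5 myeloid types and both libraries, 10 groups in all. Nfkbia was detected more often in the cells with Tnf in 10 of 10 groups, and the intervals were apart in 5. In mutant macrophages 88.0% (78.4 to 94.4) of 75 cells with Tnf had an Nfkbia UMI, against 63.8% (57.5 to 69.8) of 246 cells without. In WT neutrophils the shares were 97.9% (88.7 to 99.9) of 47 cells and 79.8% (69.9 to 87.6) of 89 cells. Tnfaip3 was more frequent with Tnf in 10 of 10 groups, with intervals apart in 1, WT neutrophils, at 74.5% (59.7 to 86.1) and 44.9% (34.4 to 55.9). Tnfaip2 was more frequent in 9 of 10 groups, apart in 2, and immature neutrophils of the mutant went the other way, with 33.3% and 46.0%. Tnfrsf1b and Tnfrsf1a were more frequent in 9 and 8 of the 10 groups, with intervals apart in 0. How many of all genes are more frequent with Tnf in as many groups was not tested. Cells of a library are not replicates, and some of these types hold more than 1 cluster.

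Across 32 profiles of a cell type in a library with at least 20 cells, the levels of the 6 genes were related to different degrees. These profiles share their libraries and depth, so the correlations (Pearson, on log2 of CPM plus 10) are descriptions. Tnf ran closest to Tnfrsf1b (r = 0.91), then to Tnfaip3 (0.86), Nfkbia (0.81) and Tnfaip2 (0.80), and least to Tnfrsf1a (0.47). Among all genes with at least 200 UMIs over these profiles, those most like Tnf were Ptafr (0.973), the receptor of platelet-activating factor, the chemokine gene Ccl3 (0.972) and Lilrb4a (0.968). The nearest to Tnfrsf1a was Ifitm2 (0.923), ahead of Atp11a (0.915) and Nfkbiz (0.884), and the nearest to Tnfrsf1b were Slfn2 (0.953), Pik3r5 (0.946) and Casp1 (0.944). For Tnfaip2 they were Clec4e (0.841), Ptgs2 (0.840) and Slc16a3 (0.837). For Tnfaip3 they were Gpr132 (0.932), Epsti1 (0.928) and Atp8b4 (0.921), and for Nfkbia Mcl1 (0.896), Csrnp1 (0.890) and Rhog (0.881).

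The other genes of the pathway, 80 in lists from ligands to targets, were read in the same way in the cells that held most of the signal. In macrophages of both kinds together, 595 WT and 953 mutant cells, 16 of 73 pathway genes tested were higher in the mutant and 1 was lower, with a median log2 ratio of 0.34. Of all 11538 genes tested there, 20.9% were higher and 3.84% lower with a median of 0.25, so the pathway genes moved much like the rest. The members had a median of 0.35, and 1 of 6 passed the fold, Tnfaip2 at 1.51 (1.47 to 1.56). Tnf stood at 120 CPM for WT and 165 CPM for the mutant (0.45, 0.36 to 0.55). Relative to the median of all genes, Tnf was at 0.20, Tnfrsf1b at 0.27 and Tnfaip2 at 1.26, while Tnfrsf1a at -0.09 and Tnfaip3 at -0.07 turned below 0.

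By role, the kinases had 4 of 10 genes higher in these macrophages (median 0.48), the highest level being that of Mapkapk2, a kinase that stabilizes Tnf mRNA, with 377 and 596 CPM (0.66, 0.61 to 0.71). The receptor complex had 2 of 12 higher, with Cflar, which blocks caspase-8, at 176 and 278 CPM. Of the inhibitors 3 of 15 were higher, and Zfp36, which destabilizes Tnf mRNA, stood at 374 and 425 CPM (0.19, 0.13 to 0.24). The linear ubiquitin genes had 1 of 5 higher, with Otulin at 46.7 and 75.8 CPM, and the NF-kappaB subunits 1 of 5, with Nfkb1 at 724 and 832 CPM. Of the targets, 4 of 16 were higher and 1 lower. The monocyte chemokine gene Ccl2 stood at 34.5 and 115 CPM (1.73, 1.58 to 1.88), Cxcl10 at 60.3 and 184 CPM (1.61, 1.49 to 1.72) and the cytokine gene Lif at 5.69 and 20.6 CPM. Mmp9, a matrix protease, was the lower one at 144 and 54.5 CPM (-1.40, -1.53 to -1.28), and Cxcl2 stood at 3088 and 2637 CPM. Of the ligands and shedding genes 1 of 5 was higher, Timp3, an inhibitor of ADAM17, at 7.72 and 35.2 CPM, and Adam17 itself stood at 218 and 274 CPM. Endothelial cells had 1557 and 1310 CPM of Timp3. In these macrophages the endothelial marker Pecam1 stood at 12.0 and 29.3 CPM and the mesenchymal marker Col1a2 at 18.8 and 49.2 CPM. The part of RNA from other cells in the Timp3 value was not tested. The TNF-induced proteins had 0 of 5 past the fold, with Tnfaip8 at 183 and 220 CPM.

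In neutrophils 0 of 6 members passed the fold and their median was -0.03. Of 49 pathway genes tested 2 were higher and 5 lower, against 12.3% higher and 16.3% lower of all 3772 genes tested. The higher ones were Map3k7, the kinase TAK1, at 24.2 and 43.6 CPM, and Nfkbid at 281 and 422 CPM (0.59, 0.34 to 0.84). Traf1 (262 and 131 CPM), Socs3 (228 and 117 CPM), the transcription factor gene Cebpb (2908 and 1611 CPM) and the receptor kinase gene Ripk1 (117 and 67.5 CPM) had the lowest ratios. Cxcl2, the target with the highest level, stood at 11931 CPM for WT and 7514 CPM for the mutant (-0.67, -0.71 to -0.62).

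In endothelial cells 1 of 5 members tested was higher, Tnfaip2, and 1 lower, Nfkbia. Of 69 pathway genes 3 were higher and 2 lower, with a median of 0.06, against 6.40% and 6.83% of all 10648 genes tested. Sele, the E-selectin gene that TNF induces on endothelium, stood at 38.1 and 75.4 CPM (0.98, 0.75 to 1.22). Ptgs2 (3.21 and 8.30 CPM) and Map3k14, the kinase of alternative NF-kappaB signaling (20.1 and 34.1 CPM), were also higher. Cxcl1 (19.1 and 9.83 CPM) and Cebpb (41.8 and 25.1 CPM) were lower.

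In mesenchymal cells 1 of 5 members passed the fold, Tnfaip2. These cells fall into 2 clusters, 1 of which held 11 WT and 204 mutant cells. Of 68 pathway genes 8 were higher and 1 lower, with a median of 0.10, against 8.39% and 5.47% of all 10973 genes tested. Those with the highest ratios were Mmp9 (2.33 and 13.3 CPM), Nfkbie (7 and 15.5 CPM), Cxcl10 (69.4 and 135 CPM) and Ccl2 (78.6 and 142 CPM). The lower one was Tnfsf11, which encodes the osteoclast factor RANKL, at 8.97 and 3.58 CPM (-1.32, -2.19 to -0.52). Neutrophil markers summed to 124 CPM for WT and 1541 CPM for the mutant in these cells, with 0 of 8 at 0 in either library, and the 8 macrophage markers to 56.2 and 161 CPM. Their part in the Mmp9 and Tnfaip2 values was not tested. Tnfaip6, an anti-inflammatory hyaluronan-binding protein, had 2253 and 1966 CPM there.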

How the data were processed

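1 droplet scRNA-seq library per condition (WT and Prox1 mutant TMJ after CFA) was analysed. The deposited values are raw, unnormalized UMI counts per gene and called barcode, which the authors made with Cell Ranger 7.0.1 on the GRCm38 genome. The labels and the study's methods name different kits and digestion enzymes, and whether intronic reads were counted is not given in the sources used here. Totals were 53517206 UMIs in 5709 WT barcodes and 62446987 UMIs in 7846 mutant barcodes.

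Following the study's settings, barcodes were required to have 500 genes or more and a mitochondrial share below 10%, then normalized with SCTransform, integrated by anchors (3000 features) and clustered on 200 principal components at resolution 1.5 (Seurat 5.3.0, sctransform 0.4.2, R 4.3.3; Python 3.11.15, scanpy 1.11.5, scipy 1.17.1). Of the 6 genes, 4 were among the integration features. A marker was raised in a cluster at 2 times the CPM of other cells (5 added) with UMIs in 10% of cells, and a name needed 3 raised markers. A rule added after the clusters were seen left a cluster unnamed when it had 4 or fewer raised markers and none of its lineage among its 10 leading genes. The 6 genes, the gene lists and the tests were chosen with earlier results of these data known.

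UMIs were summed per type and library. Levels have Poisson intervals, ratios conditional binomial intervals and shares Clopper-Pearson intervals, all at 95%. The genes named beside the 6 are the 3 most correlated with each, and in 4 cell types up to 4 listed genes with the highest and lowest ratios past 1.5-fold and the highest level of each list. Doublets were kept in the main analysis: Scrublet called 0 in both libraries on its own, and an alternative removed the 239 WT and 462 mutant barcodes with the highest scores. Naming and intervals were tested on simulated data. RefSeq gave the sequences, with entries for all 6 genes.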

Additional observations from a re-analysis of the deposited data

Results flagged for a closer look

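Signal was found in barcodes that the cell filter left out. In barcodes with under 500 genes, Tnf stood at 7.64 CPM for WT and 6.72 CPM for the mutant, and Tnfaip2 at 26.3 CPM for WT and 46.9 CPM for the mutant. Each of these is above the level that 3 UMIs would give. The direction of the Tnf difference between the libraries differed between cell types: the log2 ratio was 0.63 in inflammatory macrophages and -1.01 in granulocyte-monocyte progenitors. With 1 library per condition this difference was not tested.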

How the results depend on the processing

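In macrophages of both kinds together, the ratios relative to the median of all genes tested were 0.20 for Tnf, -0.09 for Tnfrsf1a, 0.27 for Tnfrsf1b, 1.26 for Tnfaip2, -0.07 for Tnfaip3 and -0.00 for Nfkbia. In cells holding 3 or more C1q UMIs (C1qa, C1qb, C1qc) they were 0.18 for Tnf, 0.27 for Tnfrsf1b, 1.30 for Tnfaip2, 0.06 for Tnfaip3 and 0.06 for Nfkbia. With the libraries merged without integration, Tnfaip2 was at 1.57 and Nfkbia at 0.30, and with cells of 1000 genes or more and below 5% mitochondrial UMIs Nfkbia was at 0.18. In the cluster type named macrophages alone, the ratio of Nfkbia was -0.14 relative to the median, -0.12 with 30 principal components and 0.01 with the pathway genes left out of the clustering. Tnf was at 0.51 there with resolution 0.5. Tnfaip2 was at 1.12 relative to the median, 1.12 with cells of 200 genes or more and below 20% mitochondrial UMIs, and 1.29 with merged libraries. Merging without integration turned Tnfrsf1a in erythroid cells to 0.34 and Tnfrsf1b to 0.33. With 30 principal components Tnfrsf1a in Schwann cells turned to 0.58 and Tnfrsf1b in smooth muscle cells to -0.48, and with resolution 0.5 the latter turned to -1.52. The cause was not tested.

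Tnfaip2 was higher in every type tested under each of the 8 other choices of cells or clustering, past 1.5-fold in 9 of 10 to 11 of 11 types. The share of Tnf UMIs in myeloid cells was 92.8% in WT with the looser cell filter (200 genes), 93.3% with the pathway genes left out of the clustering, 95.5% in WT and 90.2% in the mutant with doublets removed, 92.1% and 82.3% with merged libraries, 93.6% and 87.6% with 30 components, and 86.2% in the mutant with resolution 0.5. Genes past the fold numbered 2850 in macrophages, 1409 in endothelial cells, 1521 in mesenchymal cells and 1077 in neutrophils as reported. They numbered 1531 in macrophages, 606 in endothelial cells, 576 in mesenchymal cells and 345 in neutrophils with at least 200 UMIs, and 2228, 2501 and 2136 in the last 3 with at least 20 UMIs. Past 2-fold they numbered 1096, 413, 597 and 352. Leaving out the 4 shallow clusters (relative to their library's median, under 1/3) was chosen after seeing the data and changed no count of types in which a member passed the fold. Among them only the cluster led by immunoglobulin genes had a name, so only the values of inflammatory macrophages could change. No paired analysis was possible because each condition has 1 library.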
